A study of Saccharomyces cerevisiae with 22 samples.

Results

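The genes described here are 51 meiosis and sporulation genes of budding yeast, picked by name from their textbook roles, out of 6388 gene probes on the array. They were picked with earlier results of these data known. They fall into 4 regulators, 23 early genes of recombination and the chromosome axis, 16 middle sporulation genes and 8 late sporulation genes. Each was represented by 1 probe, spotted 2 times. They were followed through 9 strains in which 1 residue of histone H3 or H4 was replaced by alanine, none of which was labelled as sporulating.

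Yeast cells enter meiosis when a diploid that carries both mating types is starved. Ime1 then switches on the early genes, which build the axis of meiotic chromosomes, break the DNA and repair the breaks as crossovers. Ndt80 afterwards switches on the middle genes, which carry the cell through the divisions and enclose the nuclei in prospore membranes, and the late genes finish the spore wall. In growing haploid cells these genes are held off by repressors such as Ume6 with Rpd3 for the early genes and Sum1 with Hst1 for the middle genes.

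The H3 mutants were hht2-pm-Q5A, hht2-pm-R40A, hht2-pm-G44A, hht2-pm-R53A, hht2-pm-N108A and hht2-pm-L109A, and their control was hht2-wt. The H4 mutants were hhf2-pm-K44A, hhf2-pm-V81A and hhf2-pm-Y98A, with the control hhf2-wt. They are called here by the residue alone. Every strain was grown in a plate reader as cultures a and b, and each culture was hybridised on its own array against a common pool of wild-type RNA, which gave 22 arrays. The labels do not say how the mutant histone was brought in or whether other histone gene copies remained. All 6 H3 mutants share the arrays of hht2-wt and all 3 H4 mutants those of hhf2-wt, so their fold changes are not independent of each other. The values are log2 ratios of strain over reference, and a fold change is the log2 difference between mutant and control, with its standard error.

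All strains and the reference were labelled BY4742, which is an alpha strain, but the a-cell gene STE2 lay between 3.28 and 5.22 above the reference in every strain except Y98A, where it read 0.40 and 0.52. The alpha-cell genes STE3 and SAG1 were below the reference on all 22 arrays, with medians of -3.66 and -3.13. The 7 a-cell markers MFA1, MFA2, STE2, STE6, BAR1, AGA2 and ASG7 had medians of 1.97 to 4.56 above it over the 22 arrays. URA3 was above the reference, and TRP1, CAN1 and MET17 below it, on all 22 arrays. Direction rests on the dyes in the labels, since the series text gives the opposite order for the first hybridisation. Cultures a and b correlated by 0.893 to 0.959 across genes, and 43 to 51 of the 51 genes were above local background in the strain channel of each array. In the reference channel HOP2, MEI5, MER1, MEK1, REC114, SPS2, SPS22, SPR28, SPR1 and CDA2 were above background on 12 or fewer of the 22 arrays, so ratios of these genes have little range below the control. On bulk RNA, more cells that express a gene cannot be told apart from more RNA of it per cell.

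Meiosis and sporulation genes were higher in 5 of the mutants more often than all probes were. Since the genes were chosen with earlier results of these data known, this comparison is not independent support. A gene counts as changed at an adjusted p below 0.05 over the 6388 probes in limma's moderated test. In G44A 29 of the 51 genes rose and 5 fell, where 23.9% of all probes rose and 22.4% fell, and the median of the 51 genes was 0.24 against -0.01 over all probes. In N108A 24 rose and 0 fell, against 16.6% and 12.0% of all probes, with a median of 0.18. At an unadjusted limma p below 0.05 N108A also had HOP1 (0.20) and SPO77 (-0.12). Its count was 13 without N108A b. In Y98A 23 rose and 2 fell, against 13.9% and 16.7%, with a median of 0.16. In R40A 17 rose and 2 fell, against 9.80% and 4.95%, and in K44A 18 rose and 1 fell, against 15.9% and 13.6%. Their medians were 0.13 and 0.09. The total of 19 in R40A was 11 without R40A a and 12 without hht2-wt b, and the 19 in K44A was 11 without K44A b. In either direction, 46.3% of all probes passed in G44A, 28.6% in N108A, 30.6% in Y98A, 14.7% in R40A, 29.5% in K44A, 33.9% in V81A, 18.9% in Q5A and 0.673% in R53A.

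In V81A and Q5A falling genes outnumbered rising ones, as they did over all probes. V81A had 5 genes higher and 9 lower, against 16.8% and 17.1% of all probes, and Q5A had 3 higher and 8 lower, against 7.70% and 11.2%. For both, the share that rose was below that of all probes, and in V81A the share that fell was near it. In either direction 27.5% of the 51 genes passed in V81A, below the 33.9% of all probes, and 21.6% in Q5A, beside 18.9%. The 14 of V81A were 9 without V81A a or hhf2-wt a, and the 11 of Q5A were 6 without Q5A a or hht2-wt a. Only DIT1 passed in R53A, 1.96% of the 51 genes, where 0.579% of all probes rose and 0.0939% fell, and it passed in no fit that left out a culture. At an unadjusted limma p below 0.05 R53A had 10 of the 51 genes and 581 of the 6388 probes, and 43 of the 51 genes were above 0. Probes other than the 51, and not placed on chromosomes I, VIII or XIV, had a median of 0.0013 in R53A. In L109A 0 of the 51 genes passed, against 0% and 0.0626% of probes, and 1, MEK1, had an unadjusted limma p below 0.05. The genes lay between -0.14 and 0.20 in L109A. Between the controls hht2-wt and hhf2-wt, 0 of the 51 genes passed, as did 0% of all probes, and 0 had an unadjusted limma p below 0.05. R53A and L109A carry the number 1 in their sample titles, as both controls and Y98A do, and the other mutants carry 2. The labels do not say what it stands for. Among the H3 mutants, and in K44A and V81A against hhf2-wt, it cannot be told apart from the substitution. The number also differs between N108A and L109A and between V81A and Y98A, which are compared directly below.

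**Figure D1:**
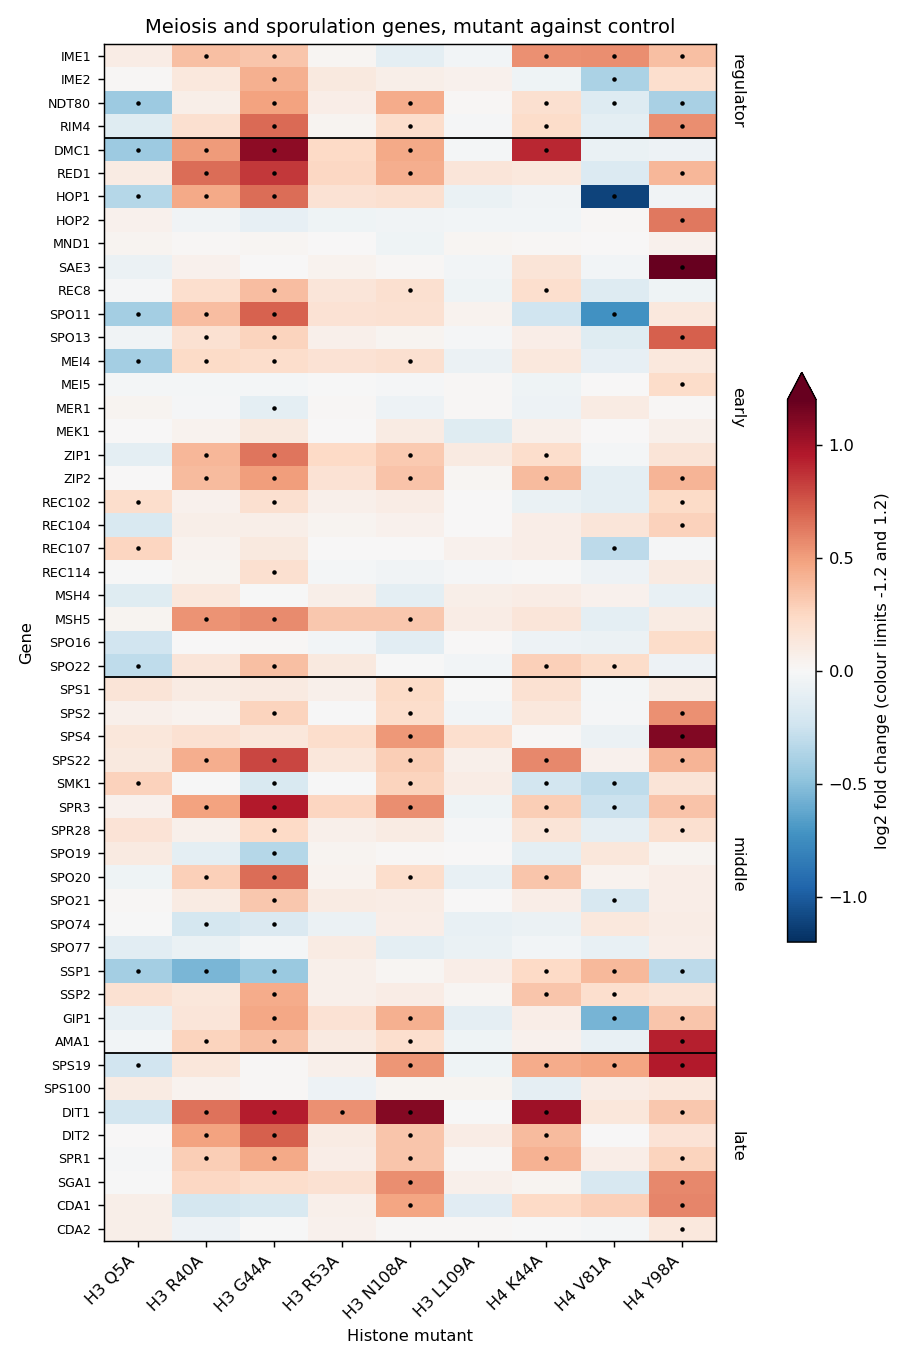
Log2 fold change of each of the 51 genes (lines, by class) in each of the 9 mutants against the control of its own histone (columns), where a dot marks an adjusted p below 0.05. Colour runs from -1.2 to 1.2, and SAE3 in Y98A, at 1.78, lies beyond its end. Red prevails in R40A, G44A, N108A, K44A and Y98A, and HOP1 in V81A is the deepest blue.

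By class, the genes that rose in R40A were 9 of 23 early, 4 of 16 middle and 3 of 8 late genes, and in G44A 13 early, 9 middle and 3 late genes. In N108A 6 of 8 late genes rose, beside 7 early and 9 middle genes, in Y98A 6 late, 8 early and 7 middle genes, and in K44A 4 late, 5 early and 6 middle genes. Of all probes 9.80% rose in R40A, 23.9% in G44A, 16.6% in N108A, 13.9% in Y98A and 15.9% in K44A. The share of early genes that rose in K44A, 21.7%, was close to that of all probes. The late genes had medians of 0.41 in N108A, 0.31 in K44A and 0.30 in Y98A, and the early genes 0.05, 0.08 and 0.12. In G44A the order was the other way, with 0.11 for the late and 0.19 for the early genes. With SGA1, SPR1, CDA1 and CDA2 counted as middle genes, the 4 late genes left had medians of 0.37 in G44A, 0.43 in N108A, 0.41 in K44A and 0.25 in Y98A, so the order in G44A depends on that choice. The difference between classes was not tested. The genes that fell in G44A were 4 of 16 middle genes and 1 early gene, MER1, where 22.4% of all probes fell.

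**Figure D2:**
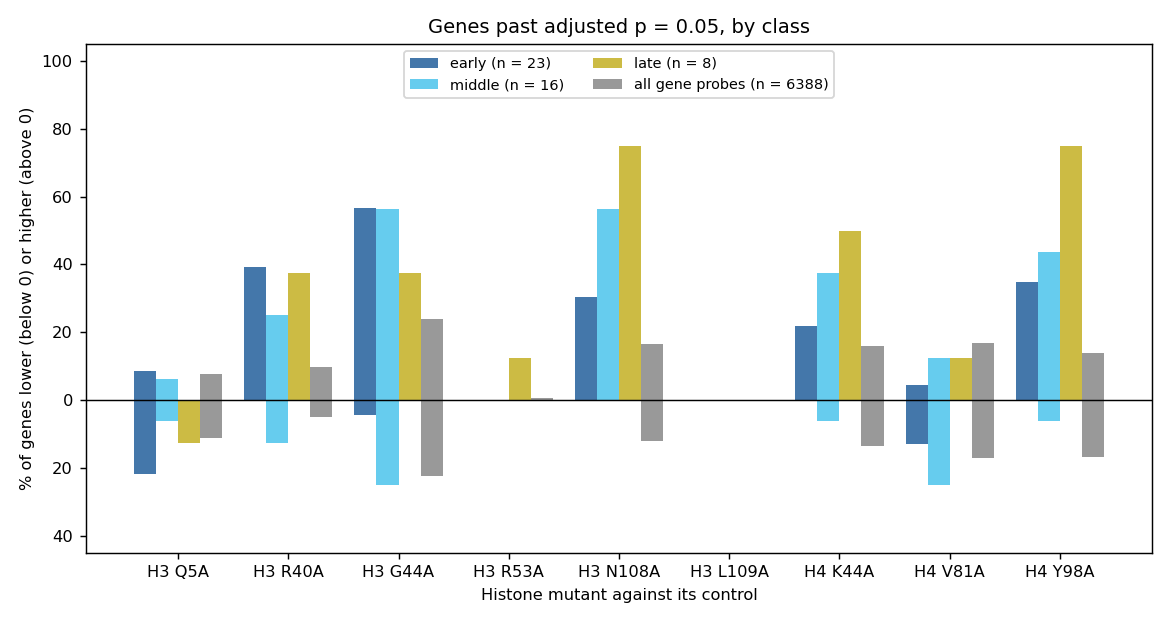
Share of the early (n = 23), middle (n = 16) and late (n = 8) genes and of all 6388 gene probes that passed an adjusted p of 0.05, higher above the line at 0 and lower below it, in each mutant against its control. Late genes reach the highest bars, in N108A and Y98A, and no class has a bar in L109A.

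All 4 regulators rose in G44A, and elsewhere 1 to 3 of them passed or none did. IME1, the inducer of the early genes, read -0.54 and -0.57 in the cultures of hht2-wt, -0.27 and -0.11 in R40A and -0.22 and -0.22 in G44A. It read -0.72 and -0.66 in hhf2-wt, -0.37 and 0.09 in K44A, -0.31 and 0.04 in V81A and -0.34 and -0.32 in Y98A. Both cultures of each of these 5 mutants were above both of their control, though K44A and V81A were spread wide. The other H3 mutants lay between -0.72 and -0.42. IME1 was higher by 0.55 ± 0.10 in K44A (adjusted p = 0.000619) and 0.55 ± 0.10 in V81A (0.000361). In R40A (0.37), G44A (0.33) and Y98A (0.36) the call was lost in the fit without the dye term and without R40A a, R40A b or hht2-wt b, without G44A a or hht2-wt b, and without Y98A a or hhf2-wt b. The adjusted p then reached 0.197, 0.126 and 0.0975.

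NDT80, the activator of the middle genes, went both ways. It read 0.44 and 0.28 in hht2-wt, 0.92 and 0.77 in G44A, 0.89 and 0.73 in N108A, and -0.06 and -0.09 in Q5A. R40A, R53A and L109A lay between 0.32 and 0.50, within or just above the control's range. Among the H4 strains it read 0.47 and 0.30 in hhf2-wt, 0.61 and 0.54 in K44A, 0.31 and 0.15 in V81A and -0.03 and 0.02 in Y98A. NDT80 thus rose in G44A (0.48 ± 0.05, adjusted p = 8.84e-06) and N108A (0.45 ± 0.05, 4.93e-05) and fell in Q5A (-0.43 ± 0.05, 8.91e-05) and Y98A (-0.39 ± 0.05, 8.62e-05). In each of these the cultures of mutant and control did not overlap. The smaller changes in K44A (0.19) and V81A (-0.16, with overlapping cultures) were lost when either K44A b or hhf2-wt b was left out, or any of the 4 cultures of V81A and hhf2-wt. In the alternatives they reached an adjusted p of 0.152 and 0.753.

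RIM4 and IME2 changed in fewer strains. RIM4, an RNA-binding protein needed for entry into meiosis, read 0.03 and 0.22 in hht2-wt and 0.83 and 0.78 in G44A, and 0.12 and 0.04 in hhf2-wt and 0.56 and 0.71 in Y98A. It was higher by 0.68 ± 0.07 (adjusted p = 6.71e-06) in G44A and 0.55 ± 0.07 (6.83e-05) in Y98A. Its calls in N108A (0.21) and K44A (0.22) did not hold without hht2-wt a or N108A b, and without K44A a, K44A b or hhf2-wt b, where adjusted p reached 0.305 and 0.268 among the alternatives. The kinase gene IME2 rose in G44A (0.43 ± 0.09, adjusted p = 0.00189), with 0.59 and 0.41 against 0.19 and -0.04 in hht2-wt. In V81A it read -0.32 and -0.29 against -0.01 and 0.17 in hhf2-wt (-0.38 ± 0.09, 0.00473), a call lost without V81A a or hhf2-wt b, where adjusted p reached 0.0815. The other 7 mutants gave IME2 values of -0.05 to 0.21.

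**Figure D3:**
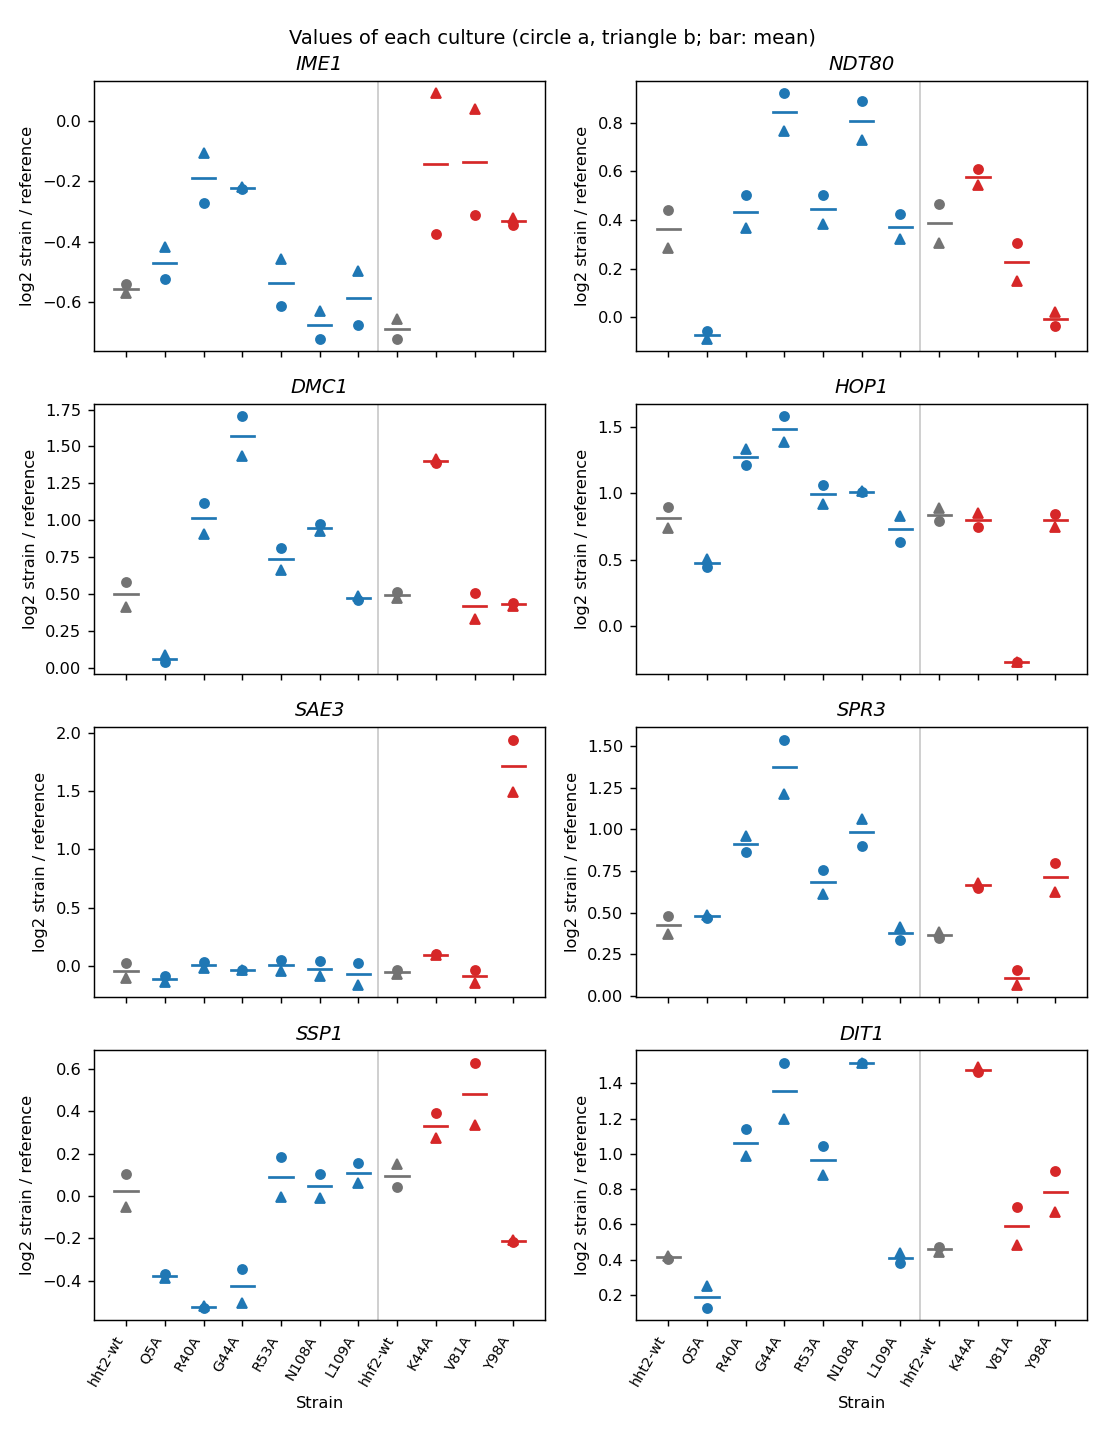
Log2 ratio of strain over reference for 8 of the genes in every culture (circle, culture a; triangle, culture b; bar, mean of both), with H3 strains in blue, H4 strains in red and the controls in grey. SAE3 stands apart in Y98A alone, at 1.95 and 1.5, in the HOP1 panel V81A is the only pair below 0, and NDT80 lies above the controls in G44A and N108A and below them in Q5A and Y98A.

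Among the early genes, DMC1, which encodes the recombinase used only in meiosis, moved most in G44A and K44A. It read 0.58 and 0.41 in hht2-wt, 0.04 and 0.09 in Q5A, 1.12 and 0.91 in R40A, 1.7 and 1.44 in G44A, and 0.97 and 0.92 in N108A. R53A (0.81 and 0.67) lay above the control and L109A (0.46 and 0.49) within it, and neither passed. For the H4 strains the readings were 0.51 and 0.47 in hhf2-wt, 1.39 and 1.42 in K44A, 0.51 and 0.33 in V81A and 0.44 and 0.42 in Y98A. DMC1 was higher by 1.07 ± 0.07 in G44A (adjusted p = 9.84e-08), 0.91 ± 0.07 in K44A (1.1e-06), 0.51 ± 0.07 in R40A (0.0003) and 0.45 ± 0.07 in N108A (0.000503). In Q5A it fell (-0.44 ± 0.07, 0.000907).

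RED1 and HOP1 encode the proteins of the meiotic chromosome axis. RED1 read 0.25 and 0.11 in hht2-wt, 0.91 and 0.79 in R40A, 1.22 and 0.84 in G44A and 0.56 and 0.66 in N108A. Those 3 mutants were above the control in both cultures, by 0.67 ± 0.09 (adjusted p = 0.000194), 0.85 ± 0.09 (4.79e-06) and 0.43 ± 0.09 (0.00269). In Y98A it read 0.59 and 0.42 against 0.16 and 0.05 in hhf2-wt, a rise of 0.40 ± 0.09 (0.0037). HOP1 read 0.89 and 0.74 in hht2-wt, 1.58 and 1.39 in G44A, 1.21 and 1.33 in R40A and 0.44 and 0.51 in Q5A. It was higher in G44A (0.67 ± 0.08, adjusted p = 2.49e-05) and R40A (0.46 ± 0.08, 0.00217). Its fall in Q5A (-0.34) was lost without hht2-wt a or Q5A a and with print-tip loess, with adjusted p up to 0.139.

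In V81A HOP1 fell further than any of the other 50 genes in any of the 9 mutants. It read -0.27 and -0.27 there, against 0.79 and 0.89 in hhf2-wt, 0.74 and 0.85 in K44A and 0.85 and 0.75 in Y98A. The change was -1.11 ± 0.08 (adjusted p = 1.27e-07), a level 0.463 times that of the control. SPO11, the enzyme that cuts the DNA to start recombination, also fell in V81A, from 0.35 and 0.48 in hhf2-wt to -0.30 and -0.33 (-0.73 ± 0.09, 1.5e-05). In G44A SPO11 rose from 0.57 and 0.34 in hht2-wt to 1.21 and 1.11 (0.71 ± 0.09, 2.22e-05). Its changes in R40A (0.37) and Q5A (-0.41) were lost without R40A a or hht2-wt b, and without hht2-wt a or Q5A a, with adjusted p up to 0.169 and 0.102.

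Among the crossover genes ZIP2 rose in 5 mutants, ZIP1 in 4, MSH5 in 3 and SPO22 in 3, while MSH4 and SPO16 passed in none. ZIP2, which marks crossover sites, read -0.02 and -0.11 in hht2-wt, 0.30 and 0.34 in R40A, 0.44 and 0.43 in G44A and 0.30 and 0.25 in N108A. It read 0.02 and -0.06 in hhf2-wt, 0.35 and 0.37 in K44A and 0.46 and 0.31 in Y98A, and the 8 cultures of Q5A, R53A, L109A and V81A lay between -0.14 and 0.11. All 5 rises, of 0.34 to 0.50, passed in every alternative run. ZIP1, the transverse filament of the synaptonemal complex, rose by 0.64 ± 0.07 in G44A (adjusted p = 1.18e-05), 0.40 ± 0.07 in R40A (0.00245) and 0.31 ± 0.07 in N108A (0.00705). It read 0.42 and 0.27 in hht2-wt and 0.32 and 0.36 in hhf2-wt. The N108A call was lost without N108A b and that of K44A (0.21) without K44A a, K44A b or hhf2-wt a, with adjusted p up to 0.0933 and 0.321. MSH5, of the complex that stabilises crossover intermediates, read 0.04 and -0.08 in hht2-wt, 0.49 and 0.54 in R40A and 0.60 and 0.49 in G44A, and its partner MSH4 changed in none of the 9 mutants (-0.14 to 0.12). MSH5 was higher by 0.54 ± 0.07 (0.000182) and 0.57 ± 0.07 (2.22e-05), and by 0.32 in N108A, a call lost without hht2-wt b (0.0575).

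Other early genes passed in at least 3 mutants with smaller changes. MEI4, a partner of Spo11, read 0.10 and 0.04 in hht2-wt and fell to -0.35 and -0.32 in Q5A (-0.40 ± 0.06, adjusted p = 0.000402). Its rises in R40A (0.23), G44A (0.21) and N108A (0.19) were lost with the authors' deposited values and with print-tip loess. They were also lost without any 1 of the 4 cultures, without G44A a or hht2-wt b, and without N108A b, hht2-wt a or hht2-wt b, and reached an adjusted p of 0.13, 0.201 and 0.248. SPO22, the Zip4 protein, was higher in G44A (0.36 ± 0.06, adjusted p = 0.000299) and K44A (0.28 ± 0.06, 0.00282), at 0.49 and 0.43 against 0.02 and 0.19, and at 0.35 and 0.44 against 0.05 and 0.18. In V81A it rose by 0.22, a call lost without V81A a, V81A b or hhf2-wt a (adjusted p up to 0.0862), and in Q5A it fell by 0.30, lost without Q5A a (0.0642). The meiotic cohesin gene REC8 rose in G44A (0.37 ± 0.07, adjusted p = 0.000406). Its calls in N108A and K44A, each 0.20, were lost without N108A b, hht2-wt a or hht2-wt b, and without K44A a, K44A b or hhf2-wt a, with adjusted p up to 0.289 and 0.21. REC102, also a partner of Spo11, read 0.09 and 0.10 in hht2-wt and 0.13 and 0.16 in hhf2-wt. It rose in Q5A (0.21), G44A (0.19) and Y98A (0.23), and each of these calls was lost without culture a of the control, and that of Q5A also without Q5A a (adjusted p up to 0.136, 0.0812 and 0.0523).

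SAE3, SPO13 and HOP2 were the early genes that rose most in Y98A. SAE3, which with Mei5 loads Dmc1 onto DNA, read 1.95 and 1.5 in Y98A and between -0.17 and 0.10 in the 20 other cultures. Its rise of 1.78 ± 0.08 (adjusted p = 1.44e-09), or 3.43-fold, was the largest of the 51 genes in these comparisons. MEI5 was not above background in hhf2-wt and was at least 1.11-fold higher in Y98A (adjusted p = 0.000862 in the fit), a call lost without the dye term (0.0547). SPO13, which keeps sister chromatids together in the first division, read 0.97 and 0.77 in Y98A against 0.13 and 0.16 in hhf2-wt (0.72 ± 0.06, adjusted p = 2.73e-07). In G44A it rose by 0.27 ± 0.06 (0.00137), and in R40A by 0.18, lost without any 1 of the 4 cultures (adjusted p up to 0.237). HOP2, which aids Dmc1 in pairing homologues, rose from 0.07 and -0.03 to 0.84 and 0.48 (0.64 ± 0.06, 1.9e-06), and its partner MND1 read 0.05 in the fit and did not pass. The fold changes of DMC1 (-0.06) and HOP1 (-0.04) in Y98A did not pass.

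Of the remaining early genes, 4 passed in none of the 9 mutants: MND1, MEK1, MSH4 and SPO16. REC107 rose in Q5A (0.26) and fell in V81A (-0.31 ± 0.06, adjusted p = 0.00112), and the Q5A call was lost without Q5A b or hht2-wt b (0.157 at most). REC104 passed in Y98A (0.28), a call lost without Y98A a or hhf2-wt a (0.061), and REC114 in G44A (0.19), lost without the dye term (0.113 at most). MER1, a splicing factor for meiotic introns, passed in G44A (-0.11), a call lost without G44A a, hht2-wt a or hht2-wt b (adjusted p up to 0.287).

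SPR3, a septin of the prospore membrane, was the middle gene that rose most in G44A. It read 0.48 and 0.37 in hht2-wt, 0.86 and 0.96 in R40A, 1.54 and 1.21 in G44A and 0.90 and 1.06 in N108A. In the H4 strains it read 0.35 and 0.38 in hhf2-wt, 0.65 and 0.68 in K44A, 0.15 and 0.06 in V81A and 0.80 and 0.63 in Y98A. Mutant and control cultures did not overlap in any of these 6. Q5A (0.47 and 0.49) and L109A (0.34 and 0.42) lay near the control, and R53A (0.75 and 0.61) above it without passing. SPR3 was higher by 0.95 ± 0.09 in G44A (adjusted p = 2.26e-06), 0.56 ± 0.09 in N108A (0.000577) and 0.49 ± 0.09 in R40A (0.00246). The changes in K44A (0.30) and V81A (-0.26) were lost without any 1 of their 4 cultures, and that of Y98A (0.35) without Y98A a or hhf2-wt a. Adjusted p reached 0.155, 0.196 and 0.103. The second sporulation septin, SPR28, rose by 0.24 ± 0.05 in G44A (adjusted p = 0.00227), and its calls in K44A (0.15) and Y98A (0.19) were lost without any 1 of 4 cultures (adjusted p up to 0.177 and 0.0734).

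SSP1, which coats the leading edge of the prospore membrane, was among the members that fell in R40A and G44A. It read 0.10 and -0.05 in hht2-wt, -0.53 and -0.52 in R40A, -0.34 and -0.50 in G44A and -0.37 and -0.39 in Q5A. R53A, N108A and L109A lay between -0.01 and 0.18, about the control. The falls were -0.55 ± 0.08 (adjusted p = 0.000254), -0.45 ± 0.08 (0.000283) and -0.41 ± 0.08 (0.00188), with no overlap of cultures. Against 0.04 and 0.15 in hhf2-wt it read -0.22 and -0.21 in Y98A, 0.63 and 0.33 in V81A and 0.39 and 0.27 in K44A. It rose in V81A (0.39 ± 0.08, 0.00105). The fall in Y98A (-0.31) was lost without Y98A a or hhf2-wt b and the rise in K44A (0.23) without K44A a, K44A b or hhf2-wt a, with adjusted p up to 0.0977 and 0.328.

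The mitogen-activated kinase gene SMK1 was lower in V81A (-0.30 ± 0.07, adjusted p = 0.00332), at -0.23 and -0.33 against 0.01 and 0.03 in hhf2-wt. It passed in both directions elsewhere, with 0.27 in Q5A, 0.26 in N108A, -0.22 in K44A and -0.18 in G44A, and these calls were lost without Q5A a, hht2-wt a or hht2-wt b, without N108A a or hht2-wt a, without K44A b, hhf2-wt a or hhf2-wt b, and without G44A a, hht2-wt a or hht2-wt b. Adjusted p reached 0.159, 0.0753, 0.209 and 0.414. SSP2, which activates Smk1, read -0.01 and -0.01 in hht2-wt and 0.58 and 0.30 in G44A (0.45 ± 0.07, adjusted p = 0.000229). It rose in K44A too (0.33 ± 0.07, 0.00373), at 0.33 and 0.24 against -0.06 and -0.04 in hhf2-wt, and its rise in V81A (0.20) was lost without V81A a, hhf2-wt a or hhf2-wt b (adjusted p up to 0.349).

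SPO20 and SPS22 rose in G44A and K44A. SPO20, a membrane fusion protein of the prospore membrane, read 0.38 and 0.32 in hht2-wt and 1.06 and 0.97 in G44A (0.67 ± 0.07, adjusted p = 4.85e-06), and 0.20 and 0.34 in hhf2-wt and 0.58 and 0.63 in K44A (0.34 ± 0.07, 0.0024). Its calls in R40A (0.28) and N108A (0.21) were lost without R40A a, hht2-wt a or hht2-wt b, and without any 1 of the 4 cultures (adjusted p up to 0.184 and 0.157). SPS22, of the spore wall, read 0.09 and -0.11 in hht2-wt, 0.99 and 0.59 in G44A and 0.54 and 0.31 in R40A. It rose by 0.80 ± 0.10 in G44A (2.12e-05), by 0.43 in R40A and by 0.29 in N108A. Of these the R40A call was lost without R40A a or hht2-wt b, and that of N108A without N108A b, hht2-wt a or hht2-wt b (adjusted p up to 0.0984 and 0.326). In hhf2-wt SPS22 was not above background on either array, and it was at least 1.46-fold higher in K44A (adjusted p = 0.000539) and at least 1.35-fold higher in Y98A (0.00678, lost without Y98A a at 0.0849). Its paralog SPS2 rose in Y98A (0.55 ± 0.06, 7.31e-06), G44A (0.27 ± 0.06, 0.0016) and N108A (0.21, lost without N108A b or hht2-wt b, at up to 0.158). Cross-hybridisation between the paralogs was not tested.

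GIP1, which directs a protein phosphatase to the prospore membrane, fell in V81A from 0.61 and 0.61 in hhf2-wt to 0.11 and -0.02 (-0.56 ± 0.08, adjusted p = 4.78e-05). It rose in G44A (0.46 ± 0.08, 0.000262), N108A (0.43 ± 0.08, 0.00109) and Y98A (0.33 ± 0.08, 0.00475), the last lost without hhf2-wt a (0.0596). AMA1, the meiosis-specific activator of the anaphase-promoting complex, read 1.15 and 0.99 in Y98A against 0.09 and 0.19 in hhf2-wt (0.93 ± 0.06, adjusted p = 7.84e-08). In the H3 strains it read 0.59 and 0.48 in G44A against 0.15 and 0.21 (0.36 ± 0.06, 0.0004). Smaller calls in R40A (0.27) and N108A (0.20) were lost without hht2-wt a or R40A a, and without N108A a, N108A b or hht2-wt a (adjusted p up to 0.107 and 0.187). SPS4 rose in Y98A, to 1.32 and 0.96 from 0.04 and 0.03 (1.11 ± 0.10, 2.34e-06), and in N108A (0.52 ± 0.10, 0.00231).

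Several middle genes behaved otherwise. SPO19 fell in G44A (-0.34 ± 0.06, adjusted p = 0.000222), at -0.49 and -0.28 against -0.10 and 0.01. SPO74, of the meiotic spindle pole, passed lower in R40A (-0.21) and in G44A (-0.18, with overlapping cultures), calls lost without R40A b, hht2-wt a or hht2-wt b and without G44A b or hht2-wt b (adjusted p up to 0.412 and 0.33). SPO21, of the same structure, rose in G44A (0.32 ± 0.06, 0.00109) and passed lower in V81A (-0.20, lost without V81A b, hhf2-wt a or hhf2-wt b at up to 0.235). SPS1, a kinase gene, passed in N108A (0.23), where its cultures overlapped with the control's, and the call was lost without N108A b, hht2-wt a or hht2-wt b (adjusted p up to 0.817). SPO77 passed in none of the mutants.

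DIT1 rose in 6 mutants, more than any other member. It makes, with Dit2, the dityrosine of the outer spore wall. It read 0.41 and 0.42 in hht2-wt, 1.14 and 0.99 in R40A, 1.52 and 1.2 in G44A, 1.05 and 0.88 in R53A, and 1.52 and 1.52 in N108A. Q5A (0.13 and 0.25) lay below the control and L109A (0.38 and 0.44) at its level. It read 0.47 and 0.45 in hhf2-wt, 1.46 and 1.49 in K44A, 0.70 and 0.48 in V81A and 0.90 and 0.67 in Y98A. DIT1 was higher by 1.10 ± 0.09 in N108A (adjusted p = 2.41e-06), 1.02 ± 0.09 in K44A (2.54e-06), 0.94 ± 0.09 in G44A (2.43e-06) and 0.65 ± 0.09 in R40A (0.000288). In R53A the rise of 0.55 ± 0.09 (0.00897) did not pass in any fit that left out a culture of R53A or hht2-wt. It lay between 0.50 and 0.60 over the alternatives, with adjusted p up to 0.191. In Y98A the rise of 0.33 was lost without Y98A a or hhf2-wt a (up to 0.139).

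DIT2 lies beside DIT1 on chromosome IV, divergently transcribed. It read 0.14 and -0.01 in hht2-wt and 0.83 and 0.74 in G44A, and it was higher in G44A (0.72 ± 0.07, adjusted p = 1.82e-06), R40A (0.49 ± 0.07, 0.000266), K44A (0.38 ± 0.07, 0.000699) and N108A (0.33 ± 0.07, 0.00264). The change of DIT1 was the larger of the pair in all 4, and in R53A DIT2 read 0.10 and did not pass. HOP1 and SPO22 on chromosome IX are also divergent neighbours. Both rose in G44A, but in V81A HOP1 read -1.11 and SPO22 0.22. SPS1 and SPS2 on chromosome IV lie in a row on the same strand, and in Y98A SPS2 read 0.55 and SPS1 0.10.

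Further late genes rose in N108A and Y98A. SPS19, a peroxisomal enzyme of fatty acid oxidation, read 0.13 and 0.12 in hht2-wt, 0.75 and 0.57 in N108A and -0.13 and -0.07 in Q5A. It read 0.09 and 0.13 in hhf2-wt, 0.53 and 0.59 in K44A, 0.58 and 0.59 in V81A and 1.09 and 1.03 in Y98A, with each mutant pair above the control. The rises were 0.53 ± 0.06 in N108A (adjusted p = 1.78e-05), 0.45 ± 0.06 in K44A (4.66e-05), 0.47 ± 0.06 in V81A (1.24e-05) and 0.95 ± 0.06 in Y98A (2.09e-08). Its fall in Q5A (-0.23) was lost without Q5A a, hht2-wt a or hht2-wt b (adjusted p up to 0.136).

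SGA1, a glucoamylase, rose in N108A (0.56 ± 0.09, adjusted p = 0.000451) and Y98A (0.58 ± 0.09, 0.000232). CDA1, a chitin deacetylase of the spore wall, rose in Y98A (0.59 ± 0.12, 0.00171) and in N108A (0.48 ± 0.12, 0.00798), the latter lost without N108A b (0.0637). SPR1, a glucanase, rose in 5 mutants: by 0.46 in G44A, 0.42 in K44A, 0.33 in N108A, 0.29 in R40A and 0.27 in Y98A. The last 3 were lost without N108A b, without R40A a, R40A b or hht2-wt a, and without any of the 4 cultures, with adjusted p up to 0.0581, 0.0978 and 0.0572. CDA2 passed in Y98A (0.12), lost without any of the 4 cultures (up to 0.177), and SPS100 in none (-0.10 to 0.13).

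Direct tests were made in a few pairs where neighbouring residues or strains differed, so they do not stand for all pairs of mutants. G44A against R40A, 2 substitutions close together in H3, differed in 19 of the 51 genes, with 18 higher in G44A and 1 lower, where 11.6% and 9.31% of all probes did so. DMC1 (0.56 ± 0.07, adjusted p = 0.000351), RIM4 (0.49 ± 0.07, 0.000798), SPR3 (0.47 ± 0.09, 0.00374) and NDT80 (0.41 ± 0.05, 0.000351) were higher in G44A, and SPO19 was lower (-0.22, lost without G44A a or R40A b). RED1 (0.18) and MSH5 (0.03), which rose in both, did not pass. The count was 7 without G44A a, 13 without R40A a, 6 without R40A b and 7 without the dye term.

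N108A and the adjacent L109A differed in 25 genes, 24 higher and 1 lower in N108A, against 15.6% and 9.33% of all probes. The difference was 1.11 ± 0.09 for DIT1 (adjusted p = 2.38e-06), 0.61 ± 0.09 for SPR3 (0.000392), 0.58 ± 0.06 for SPS19 (1.18e-05) and 0.54 ± 0.08 for GIP1 (0.000227). MSH4 was the lower one (-0.19, adjusted p = 0.0402), lost without any 1 of the 4 cultures. The count was 9 without L109A a, 16 without L109A b and 10 without N108A b, and DIT1, SPR3, SPS19 and GIP1 passed in every alternative run.

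The H4 mutants differed among themselves. In either direction 44.1% of all probes passed for V81A against K44A, beside 20.9% for G44A against R40A and 24.9% for N108A against L109A. V81A against K44A had 23 genes lower and 3 higher, where 21.1% and 22.9% of all probes were, led by HOP1 (-1.07 ± 0.08, adjusted p = 5e-07), DMC1 (-0.98 ± 0.07, 3.28e-07) and DIT1 (-0.89 ± 0.09, 4.25e-06). V81A against Y98A had 29 lower and 3 higher, against 18.4% and 21.6%, led by SAE3 (-1.81 ± 0.08, 1.07e-09), SPS4 (-1.18 ± 0.10, 4.38e-07) and HOP1 (-1.07 ± 0.08, 1.58e-07). SSP1 (0.70 ± 0.08, 3.61e-06), SPO22 (0.27) and NDT80 (0.23) were higher in V81A than in Y98A, and the call of NDT80 was lost without Y98A a or the dye term (0.0801). IME1 differed by 0.01 between V81A and K44A and did not pass.

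Mating-type genes moved with these H4 mutants. In Y98A all 7 a-cell markers were lower than in hhf2-wt (median -3.49), as were all 8 haploid-specific markers GPA1, STE4, STE18, STE5, FUS3, FAR1, AXL1 and RME1 (median -2.35). In V81A 6 of the 7 a-cell markers (median -1.11) and all 8 haploid-specific markers (median -1.15) were lower. STE2, the receptor gene of a cells, read 4.41 and 4.96 in hhf2-wt, 3.28 and 3.86 in V81A and 0.40 and 0.52 in Y98A, while STE3 of alpha cells read -3.76 and -3.73 in Y98A and -3.92 and -3.76 in hhf2-wt. STE3 did not pass in Y98A, but SAG1, the other alpha-cell gene measured, was lower there (-0.32 ± 0.06, adjusted p = 0.000878). MATALPHA1, which is not among these 8, rose in V81A (0.63 ± 0.12, adjusted p = 0.000982) and read 0.19 in Y98A without passing. In K44A 0 of the 7 a-cell markers and 1 of the 8 haploid-specific markers passed. The alpha-cell genes STE3 (0.46 ± 0.08) and SAG1 (0.52 ± 0.06) rose in K44A. STE3 and SAG1 also rose in R40A (0.32 and 0.75), G44A (0.25 and 0.86) and N108A (0.59 and 0.42). STE3 fell in Q5A (-0.58), and neither passed in R53A, L109A or V81A. In G44A 0 of the 7 a-cell markers passed, and 3 of the 8 haploid-specific markers were lower. As background, cells that carry both mating types express neither the a-cell nor the haploid-specific genes. The part of these markers in the changes of the meiosis genes was not tested.

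RME1, which represses IME1 in haploids, was among the lower genes. It read -0.40 and -0.55 in hhf2-wt, -1.68 and -1.42 in V81A and -1.45 and -2.23 in Y98A (-1.07 ± 0.17, adjusted p = 0.000163, and -1.36 ± 0.17, 3.33e-05). IME4, an RNA methyltransferase that promotes meiosis, read 0.20 and 0.17 in hhf2-wt, 1.73 and 1.05 in V81A and 2.39 and 1.88 in Y98A (1.2 ± 0.15, 1.45e-05, and 1.95 ± 0.15, 2.24e-07). In both genes the cultures of these mutants lay apart from those of the control, and K44A lay beside it, with -0.38 and -0.41 for RME1 and 0.27 and 0.26 for IME4. IME1 rose in K44A, V81A and Y98A. RME1 was also lower in Q5A (-0.54 ± 0.17, limma adjusted p = 0.0389), where IME1 did not pass.

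**Figure D4:**
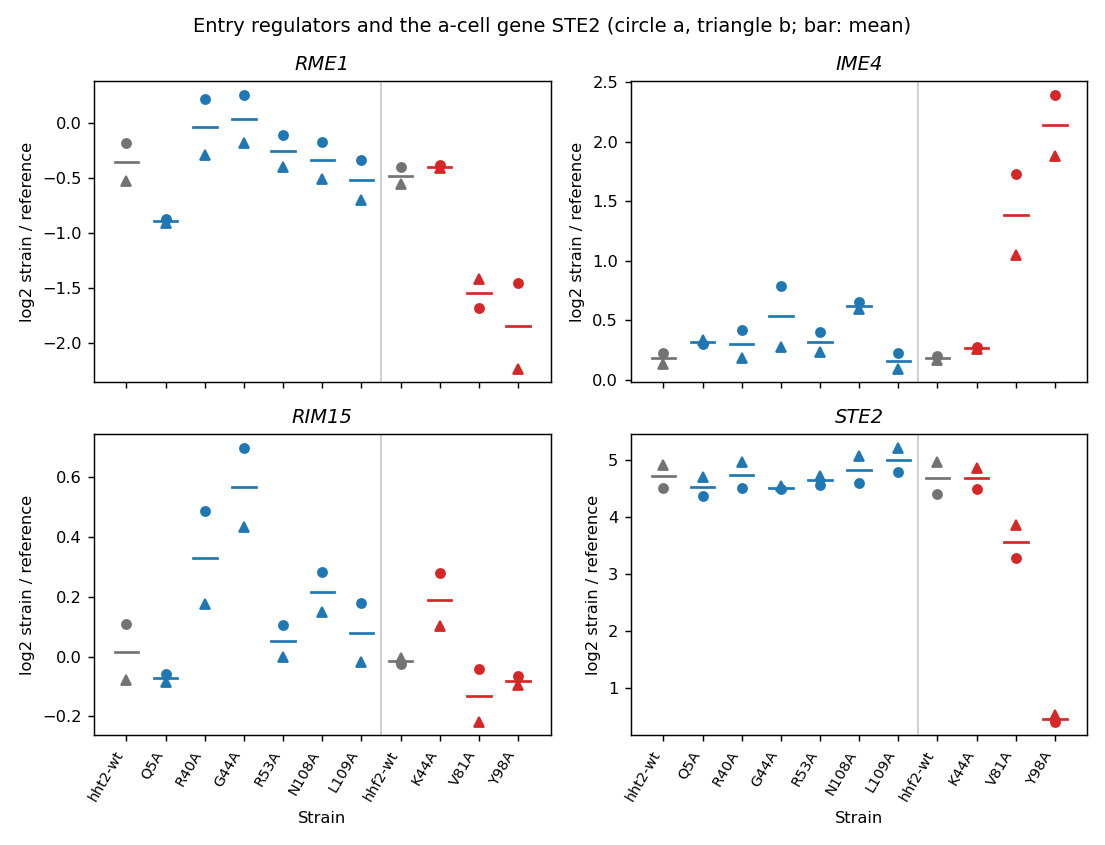
Log2 ratio of strain over reference in every culture (circle, culture a; triangle, culture b; bar, mean) for RME1, IME4, the kinase gene RIM15 and the a-cell gene STE2, with H3 strains in blue, H4 strains in red and controls in grey. V81A and Y98A lie apart from the other strains in RME1, IME4 and STE2, and RIM15 is highest in G44A.

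Of 21 genes that control entry into meiosis or repress its genes, 5 rose and 3 fell in G44A, 6 and 2 in N108A, 5 and 1 in K44A, 4 and 3 in V81A, 4 and 4 in Y98A, 1 and 1 in each of Q5A and R40A, and 0 passed in R53A and L109A, where 1 in each had an unadjusted limma p below 0.05. The 8 called in G44A, 7 in V81A and 6 in K44A stand beside 46.3%, 33.9% and 29.5% of all probes called there, so these shares are near or below the background. The 8 of 21 called in each of N108A and Y98A stand beside 28.6% and 30.6% of all probes, and the difference was not tested. The 2 in each of Q5A and R40A are a smaller share than 18.9% and 14.7%. RIM15, a kinase of nutrient signalling, rose in G44A (0.55 ± 0.07, adjusted p = 2.68e-05) and R40A (0.32 ± 0.07, 0.00794). SUM1, the repressor of middle genes, was lower in G44A (-0.35 ± 0.09, 0.00607) and R40A (-0.29 ± 0.09, 0.0406). RPD3, the histone deacetylase, was higher in K44A (0.65 ± 0.07) and V81A (0.93 ± 0.07). It lies on chromosome XIV, whose genes other than the 51 had a median of 0.39 in K44A and 0.73 in V81A. SPS19 lies there too, and its rises of 0.45 and 0.47 were beside that shift, while in Y98A, where that median was 0.01, it rose by 0.95.

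Chromosome VIII holds 9 of the 51 genes. Its other genes had a median of 0.19 in G44A, 0.06 in culture a and 0.35 in culture b. The 9 members on it had a median of 0.07 there, with NDT80, RIM4, SPO11 and SPO13 higher and SSP1 lower, and NDT80 was above hht2-wt by 0.48 in both culture a and culture b. The members that rose were 44.4% of the 9, near the 47.3% of the chromosome's other genes that rose in G44A. With chromosomes I, VIII and XIV left out, 25 of 40 genes rose and 3 fell in G44A. Over all probes, those chromosomes included, 23.9% rose and 22.4% fell.

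Of 13 general stress genes, 13 rose in G44A (median 1.51), 10 in R40A (0.73) and 9 in N108A (0.61), where 23.9%, 9.80% and 16.6% of all probes rose. In Y98A 4 rose (0.42), against 13.9%, and in K44A 4 rose and 1, HSP12, fell (-0.02), against 15.9% and 13.6%. In V81A 1 rose and 5 fell (-0.51), in Q5A 0 rose and 3 fell (-0.33), and in R53A and L109A 0 passed, at medians of 0.06 and 0.31, with 0 and 2 at an unadjusted limma p below 0.05. Their part in the changes of the meiosis genes was not tested.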

How the data were processed

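Each of the 22 arrays carried 15552 spots, and the 6388 gene probes were each spotted 2 times. The values used were the scanner intensity and local background of each spot as deposited, per the file headers, and the authors' deposited log2 ratios served as an alternative, with 3 arrays of opposite sign turned. Per the submitters' processing notes limma was used, with no version given. Intensities were corrected with normexp (offset 50) and loess (span 0.3) in limma 3.58.1 under R 4.3.3, control spots had weight 0, duplicate spots were averaged, and ratios were turned to strain over reference by the dyes in the labels. The fit held a mean for each of 11 strains and a dye term, with moderated tests and Benjamini-Hochberg adjustment over 6388 probes. It was tested on simulated data. The strain dye was Cy3 in every culture a and Cy5 in every culture b, so dye and culture letter cannot be told apart. Nothing in the labels says how separate the cultures were, so p-values measure only the spread between them, and the number of arrays limits the precision. The median standard error of the 51 genes was 0.069. The genes and lists were chosen with earlier results of these data known. By rule the text names the 4 regulators, up to 8 genes with the largest change and up to 4 lower ones per mutant, those past the threshold in at least 3 mutants with one sign, and up to 3 genes of each other list per mutant. The rule asks for every culture of the genes past it in 3 mutants; outside 12 genes the control, the leading mutants or a range stand for them.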

Additional observations from a re-analysis of the deposited data

How the results depend on the processing

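No call among the 51 genes reversed under any alternative, but many did not pass in every alternative. The scaling alternatives moved the median of all genes by at most 0.0052. Leaving out each culture in turn gave counts of 6 to 10 in Q5A (11 with all cultures), 11 to 15 in R40A (19), 29 to 33 in G44A (34), 0 to 0 in R53A (1), 13 to 21 in N108A (24), 11 to 14 in K44A (19), 9 to 10 in V81A (14) and 17 to 24 in Y98A (25). For the direct tests it gave 6 to 22 for G44A against R40A (19), 9 to 24 for N108A against L109A (25), 20 to 24 for V81A against K44A (26) and 25 to 28 for V81A against Y98A (32). Fitting only the 4 arrays compared gave 4 in Q5A, 13 in R53A, 4 for G44A against R40A and 14 for N108A against L109A. Q5A had 18 against the mean of both controls. R53A had 2 against the control of the other histone, 2 against both controls and 2 without chromosomes I, VIII and XIV. The cause of these changes was not tested.

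The dye term is the replicate block here, since culture letter and dye coincide. Without the replicate block the counts were 9 in V81A, 7 for G44A against R40A and 16 for N108A against L109A, and within 1.5 times elsewhere. Deviations of same-lettered cultures correlated above 0.1 in 52 of 55 pairs of strains (median 0.387, lowest -0.12). Slide and scan as blocks were not run, because the files give neither. Genes near background in the reference limit how far a fall could be measured.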

Other observations

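Meiotic genes outside the 51 were counted on lists of 13 other early genes and 19 other middle and late genes, which were also chosen with earlier results known. Of the 13 early genes 5 rose and 1 fell in G44A (median 0.00), 4 and 1 in K44A, 3 and 0 in N108A, 2 and 4 in Y98A, 2 and 7 in V81A, 1 and 2 in Q5A, 1 and 0 in each of R40A and R53A and 0 in L109A, where 0 had an unadjusted limma p below 0.05. Of all probes 23.9% rose and 22.4% fell in G44A, 15.9% and 13.6% in K44A and 16.6% and 12.0% in N108A. The shares were 13.9% and 16.7% in Y98A, 16.8% and 17.1% in V81A, 7.70% and 11.2% in Q5A and 9.80% and 4.95% in R40A. They were 0.579% and 0.0939% in R53A and 0% and 0.0626% in L109A. In either direction 6 of 13 passed in G44A against 46.3% of all probes, 3 in N108A against 28.6% and 9 in V81A against 33.9%. HFM1, the helicase of crossover formation, rose in G44A (0.64 ± 0.06), R40A (0.52 ± 0.06), N108A (0.51 ± 0.06), K44A (0.48 ± 0.06) and R53A (0.46 ± 0.06) and fell in Q5A (-0.61 ± 0.06), Y98A (-0.29 ± 0.06) and V81A (-0.23 ± 0.06), with a largest adjusted p of 0.013 in limma's test. RDH54, a Rad54 homolog used in recombination, was lower in V81A (-1.24 ± 0.07) and Y98A (-1.61 ± 0.07) and higher in G44A (0.46 ± 0.07) and K44A (0.22 ± 0.07). MAM1, a monopolin subunit, rose in Y98A (0.80 ± 0.08) and fell in V81A (-0.27 ± 0.08), and SPO1 rose in K44A (0.57 ± 0.07), G44A (0.53 ± 0.07), V81A (0.41 ± 0.07) and N108A (0.33 ± 0.07) and fell in Q5A (-0.35 ± 0.07). These values were not corrected for the shift of chromosome XIV, whose genes other than the 51 had medians of 0.39 in K44A and 0.73 in V81A.

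Of the 19 other middle and late genes, 12 rose and 0 fell in G44A, where their median was 0.31. In N108A 10 rose, in K44A and Y98A 7 rose and 1 fell, in R40A 4 rose, in V81A 1 rose and 4 fell, and in Q5A 3 fell. Of all probes 23.9% rose in G44A, 16.6% in N108A, 15.9% in K44A, 13.9% in Y98A, 9.80% in R40A, 16.8% in V81A and 7.70% in Q5A. The shares that fell were 13.6% in K44A, 16.7% in Y98A, 17.1% in V81A and 11.2% in Q5A. In R53A and L109A 0 of the 19 passed, with 4 and 0 at an unadjusted limma p below 0.05. PES4 rose in G44A (1.02 ± 0.13), N108A (0.75 ± 0.13), Y98A (0.63 ± 0.13), K44A (0.60 ± 0.13) and R40A (0.47 ± 0.13). DON1, of the prospore membrane, rose in G44A (0.72 ± 0.07), R40A (0.66 ± 0.07), Y98A (0.52 ± 0.07), K44A (0.49 ± 0.07) and N108A (0.22 ± 0.07). SPO75 rose in Y98A (0.90 ± 0.08) and G44A (0.32 ± 0.08). LOH1 rose in N108A (0.62 ± 0.08) and Y98A (0.36 ± 0.08) and fell in V81A (-0.47 ± 0.08) and K44A (-0.25 ± 0.08).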
